A study of Talpa occidentalis and Mus musculus with 35 samples.

Results

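Nested genes are genes that lie whole inside another gene, usually in 1 of its introns. They were taken here from the gene annotation of the Iberian mole, Talpa occidentalis, on the assembly talOcc3. The members were selected on position: a named gene line was a member, called the guest, when it lay between the start and end of a gene line of another symbol, the host, and touched none of the host's coding parts. This rule found 521 guests among 21490 named gene lines, which is 2.42%, and the annotation holds 1846 further lines without a symbol. The guests carried 412 symbols, sat in 399 hosts and lay on 60 of 2074 scaffolds. For every guest exactly 1 host qualified, and 0 guests were hosts themselves. As the rule used the positions and coding parts of these lines, the number of members is a description and carries no test.

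The annotation belongs to a study of 35 RNA libraries of mole and mouse gonads in 16 groups. The 19 mole libraries, all wild type, come from embryonic day 15 ovotestes and testes (2 each), from postnatal day 7 (3 each of ovarian part, testicular part and testis) and from adults (2 each of the same tissues). The 16 mouse libraries are wild-type CD1 ovaries and testes at embryonic day 13.5, postnatal day 7 and 10 weeks (2 each), with embryonic day 13.5 ovaries labelled Fgf9 mutant (2) and their wild type, whose titles say B6 (2). The allele behind the mutant label is not given in the labels. No expression value of any library was analysed here, so nothing below compares these groups, and whether a guest is transcribed in a gonad was not measured.

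A guest that shares the strand of its host is contained in the primary transcript of the host, and a guest on the other strand is not. Nested genes of mammals have several known origins: a processed messenger RNA can be copied back into DNA and land in an intron, which leaves an intronless copy, a gene can come to lie in a host that gained an outer exon, and some pairs are old and shared across vertebrates. Compact receptor genes, small proteoglycan genes and the inhibitors of metalloproteinases inside the synapsin genes are well-known guests. A gene model that joins exons of neighbouring genes also encloses what lies between them.

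The annotation gives coding exons only: its 180386 exon lines stand at the same positions as its coding lines. An exon here is therefore a coding part, an intron is a gap between coding parts, and untranslated exons do not enter. Strand was not used by the rule. All 521 guests lay on the strand opposite their host, so 0 of 521 shared it (exact binomial 95% upper limit 0.706%). That value belongs to the annotation as a whole. Of 850 overlapping pairs of gene lines of any kind, 0 were on the same strand, whereas 51% of 19613 neighbouring named lines shared a strand. In the mouse annotation (GENCODE M21), 196 of 475 nested coding pairs, or 41.3% (95% interval 36.8 to 45.8), lay on the same strand. These gene models thus held no same-strand nest, and the guests below are opposite-strand nests alone. Why the annotation holds no same-strand overlap was not tested, and the sources used do not say. Intervals throughout are exact binomial or order-statistic intervals that treat guests as independent, although guests can share a host.

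Well-known nested pairs were recovered with their hosts. Of 29 textbook pairs looked up, 20 were nested in talOcc3, 5 had guest and host apart, and 4 had no locus of the guest. In the later mole assembly MPIMG_talOcc4v2.1, the guest lay inside the host in 20 of the 20, in 5 of the 5 and in 3 of the 4. For that assembly, inside means between the start and end of the host gene. Contact with the host's coding parts was not checked there, so this is looser than the rule for talOcc3. NF1, which encodes the Ras regulator neurofibromin, held 3 guests in its intron 35 of 61.3 kb. These were OMG, the oligodendrocyte myelin glycoprotein (scaffold 25, 7936314 to 7937642, 1329 coding bases in 1 exon), and EVI2B and EVI2A, which encode transmembrane proteins. The 3 synapsin genes, whose products coat synaptic vesicles, each held a tissue inhibitor of metalloproteinases in intron 5. TIMP1 lay in SYN1 (scaffold 24, 3274601 to 3278992), TIMP4 in SYN2 (scaffold 12, 6320169 to 6325191) and TIMP3 in SYN3 (scaffold 19, 37249762 to 37297003). Each of these 3 guests had 5 exons, and their introns measured 24.6 kb, 10.6 kb and 189 kb in that order. The fourth family member, TIMP2, also lay inside a gene line, that of C1QTNF1, but that pair lies apart within 100 kb in the mouse.

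Receptors were 1 group of guests. Of 260 gene lines for G protein-coupled receptors other than olfactory, taste and vomeronasal ones, 16 were nested, or 6.15% (3.56 to 9.80). Further loci of their symbol were 0 of the 16 guests, and they are rare in the class as a whole, with 15 of 260 lines. MED12L, a relative of a Mediator subunit, held 5 of them in its intron 15 of 162 kb. Among these, P2RY12 and P2RY13 encode receptors for ADP, P2RY14 encodes a receptor for UDP-glucose, and GPR171 is a related receptor gene of the same intron. UBAC2 held GPR18 and the oxysterol receptor gene GPR183 in its intron 4 of 53.2 kb. RB1, the retinoblastoma tumour suppressor, held the lysophosphatidic acid receptor gene LPAR6 in its intron 15 of 55.7 kb, and COG5, a Golgi tethering subunit, held GPR22 in intron 6. Of these 16 receptor guests, 15 could be compared with the mouse and 15 were nested there in the same host. The other was GRM6 in ZNF454, and in the later mole assembly these genes lay apart within 100 kb.

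Genes of leucine-rich repeat proteins were among the guests too, a group put together after the pairs were seen, for which no share is given. CENPP, a kinetochore gene, held OGN, OMD, ASPN and ECM2 in an intron 4 of 157 kb. Osteoglycin, osteomodulin and asporin are small leucine-rich proteoglycans of connective tissue. LRRTM1 and LRRTM2, synaptic adhesion genes, lay in CTNNA2 and CTNNA1, which encode alpha-catenins. LRRTM1 used the longest intron of any pair, 469 kb, of which its single exon of 1566 bases took 0.334%. LRRN3 lay in intron 2 of IMMP2L, an intron of 428 kb in the gene of a mitochondrial peptidase subunit. With LRTM1, LRRC4, LRRC17, LRRC18, LRRC19, AMIGO3, VASN, OMG and CHAD there were 16 such guests, 15 of them nested in the mouse. The other was LRRC4, whose mouse gene lies inside Snd1 but overlaps a coding part of it. The angiopoietin-like genes ANGPTL1, ANGPTL2 and ANGPTL7 lay in RALGPS2, RALGPS1 and MTOR. MAB21L1 and MAB21L2, developmental genes without introns, lay in NBEA and LRBA, which are related to each other.

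**Figure D1:**
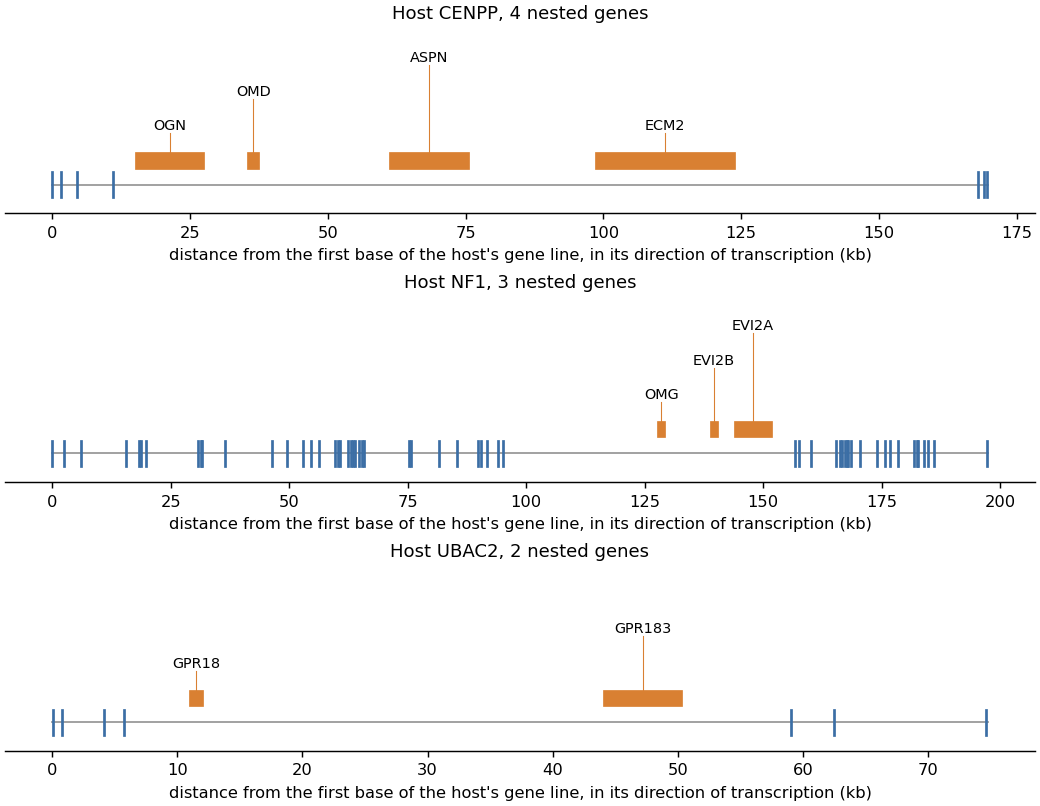
Maps of 3 hosts with several guests; the horizontal axis is distance in kb along the host in its direction of transcription, blue ticks are coding parts of the host and orange boxes are the spans of the nested genes. In each host all guests share 1 long intron: 157 kb in CENPP, 61.3 kb in NF1 and 53.2 kb in UBAC2.

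Compared with other named lines, guests were short and often intronless. A single exon was found in 298 of 521 guests, 57.2% (52.8 to 61.5), against 20% of all named lines. The median coding length was 675 bases (615 to 744), against 1086 in named lines that were not nested. Since the rule favours short lines, the share was also taken within classes of coding length. At up to 300 bases, 90.4% of guests and 59.1% of other lines had 1 exon. Above 300 and up to 600 bases the values were 77.0% and 36.9%, from there up to 1200 bases 48.4% and 24.3%, and above that 16.5% and 3.93%. In each of these 4 classes the guests' share was the higher, and the intervals did not overlap. The share depended on the label of the model. Guests labelled exonerate had 1 exon in 248 of 301 cases, 82.4% (77.6 to 86.5), against 75.8% of all named lines of that label. Those labelled ALN had 1 exon in 50 of 107, 46.7% (37.0 to 56.6), against 40.5%, and those labelled EVM in 0 of 113, against 0.433%. Within a label the guests were thus much closer to the other lines than over all labels, where exonerate models made up 57.8% of guests and 20% of named lines.

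Many guests were additional loci of a symbol. For each symbol the locus with the highest deposited score was called its first locus, and the others further loci. Further loci made up 273 of 521 guests, 52.4% (48.0 to 56.8), against 24.6% of all named lines. Of the 4 kinds of guest, single-exon further loci were the most frequent with 213, followed by first loci of several exons with 163, single-exon first loci with 85 and further loci of several exons with 60. Read the other way, 7.38% of all single-exon further loci in the file were nested, 5.99% of single-exon first loci, 2.49% of further loci of several exons and 1.10% of first loci of several exons. Introns of named lines covered 27.2% of the annotated length of the scaffolds. Among the 213 single-exon further guests, 124 (58.2%) belonged to a symbol whose first locus had several exons, against 51.0% of single-exon further loci that were not nested, with overlapping intervals (51.3 to 64.9 and 49.1 to 52.9). Further guests reached a median of 86.0% of the coding length of their first locus and 65.1% of the highest score. Only 44 of 273 (16.1%) lay on the scaffold of their first locus, against 36.5% of further loci outside hosts.

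Genes of cytosolic ribosomal proteins, the structural proteins of the ribosome, were the class with the highest nested share of the 25 classes of symbols. They gave 76 guests, 14.6% of all guests and 14.4% (11.5 to 17.6) of the 529 lines of the class. The 76 guests carried 34 symbols, 52 of the large and 24 of the small subunit, and were spread over 75 hosts. Of these guests 70 were further loci and 69 had 1 exon. Both are common in the class as a whole, in which 437 of 529 lines were further loci and 409 had 1 exon. Of its further loci 16.0% were nested and of its single-exon lines 16.9%, against 5.16% and 6.92% over all named lines. Of the 21 loci of RPS24, 7 were guests, in FNIP2, MPP5, MYPN, RNF145, SNX3, SYT9 and UBE4A. For RPL21 it was 6 of 33 loci, for RPL26 6 of 16, for RPL17 5 of 21 and for RPS27 5 of 12. Many of these copies were nearly whole: 44 of 70 further loci had at least 90% of the coding length of the first locus. The median score of the 70 was 85.3% of the highest. These values were not taken for ribosomal further loci that were not nested. RPL17_copy2 in PDK3, a pyruvate dehydrogenase kinase gene, reached 99.1% of the highest score of RPL17 with 558 coding bases in 1 exon, while the first locus of RPL17 has 6 exons. In the first intron of the host lay 6 of the 76. The host was labelled EVM for 73 of the 76, and first introns held 9.09% of the intron bases of all hosts of that label.

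Other housekeeping genes gave fewer guests. CYCS, the gene of cytochrome c, gave 4 single-exon guests out of 5 loci, in LRPPRC, HELLS, NSD1 and RNF17. Their coding lengths ran from 313 to 318 bases. The class of oxidative phosphorylation subunits gave 17 guests of 616 lines, or 2.76% (1.62 to 4.38), near the 2.42% of all lines. Of these guests 15 had 1 exon and 14 were further loci, against 510 and 514 of all 616 lines of the class. RNA-binding and splicing proteins gave 10 of 252, and 8 of the 10 were further loci against 65 of the 252. Histone and chromatin proteins gave 15 of 178 (8.43%, 4.79 to 13.5). Of these, 6 lines named as H2A, H2B, H3 and H4 genes sat in intron 3 of ZNF43. Ion channels (2 of 300, 0.667%) and kinases or phosphatases (3 of 395, 0.759%) had the lowest shares among classes of at least 100 lines.

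**Figure D2:**
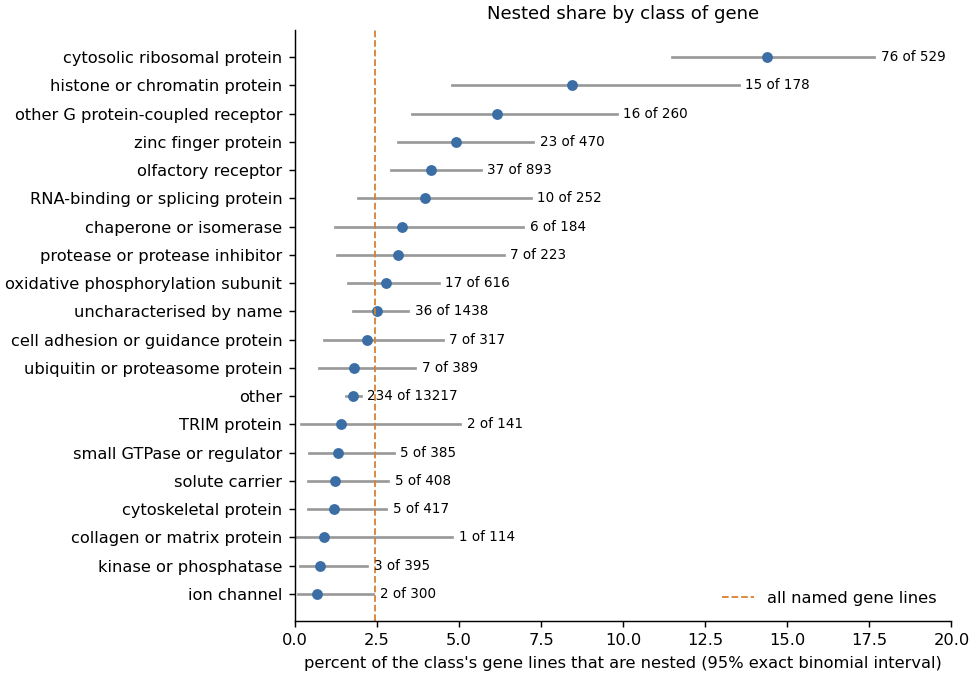
Percent of the named gene lines of each functional class that are nested in another gene, with exact binomial 95% intervals, for classes of at least 100 lines; classes come from the symbol, and the dashed line is the 2.42% of all named lines. Cytosolic ribosomal proteins stand highest at 14.4%, followed by histone and chromatin proteins at 8.43%, and ion channels stand lowest at 0.667%.

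Zinc finger genes and olfactory receptor genes stood out on the side of the hosts. Among lines with several coding parts, 2.32% were hosts. Zinc finger genes reached 6.53% (22 of 337; 4.14 to 9.72) and olfactory receptor genes 8.52% (15 of 176; 4.85 to 13.7). These same 2 classes were guests in 4.89% and 4.14% of their lines. Most hosts, 339 of 399, held 1 guest, 40 held 2, 4 held 3 and 16 held 4 or more. The 10 hosts with most guests held 66 guests, or 12.7%. ZNF668 led with 12 guests over 367 kb of scaffold 17, among them SRCAP, a chromatin remodelling ATPase gene with 36 exons, the ubiquitin ligase gene RNF40 with 19 exons, STX4, ORAI3 and 2 loci of SETD1A. OR52E8 and OR52K2 held 8 each, mostly other olfactory receptors, OPN1LW held 6, among them IRAK1 and loci of HCFC1, and ZNF43 and ZNF45 held 6 each. MED12L, ZNF132, ZNF467 and ZSCAN21 held 5 each. For 5 of these 10 hosts pairs could be looked up in the later mole assembly. The guests of MED12L lay inside it there in 5 of 5 cases. Of the guests looked up for ZNF668 (12), ZNF45 (6), ZNF467 (4) and ZNF132 (2), 0 lay inside the host. For OR52E8, OR52K2, OPN1LW, ZNF43 and ZSCAN21 no pair could be looked up.

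Hosts were long genes. Their median span was 82.0 kb (71.8 to 92.7) against 13.3 kb for all named lines of several coding parts, with a median of 11 exons against 7. The share that held a guest was 0.179% for lines of up to 10 kb, 1.95% for 10 to 50 kb, 4.91% for 50 to 100 kb, 11.8% for 100 to 200 kb, 15.5% for 200 to 500 kb and 32.6% (14 of 43; 19.1 to 48.5) above 500 kb. It thus rose from each length class to the next, which follows in part from the rule, since only a long line can enclose another. Among the hosts 298 of 399 were labelled EVM, 74.7%, against 85.9% of the other lines of several coding parts.

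**Figure D3:**
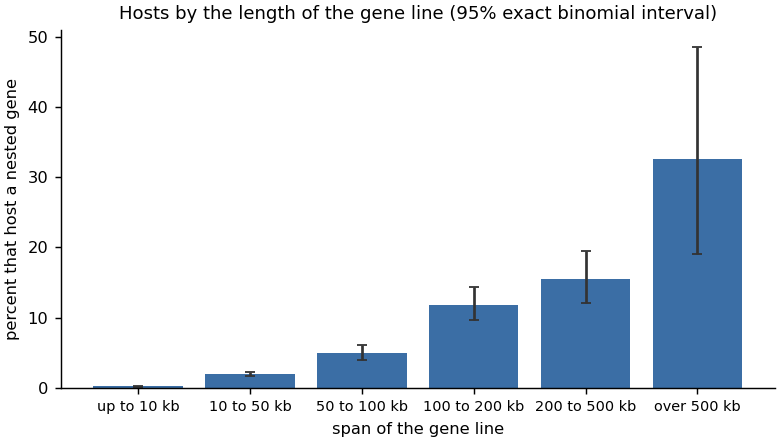
Percent of gene lines with several coding parts that host a nested gene, by span of the line in kb; bars are shares and error bars are exact binomial 95% intervals. The share is 0.179% up to 10 kb and 32.6% above 500 kb, where only 43 lines were available.

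Guests used long introns. Of the 521, 513 lay in an intron, and the other 8 lay within the gene line but outside its coding span. The 414 introns used had a median length of 20.3 kb (17.2 to 24.9), against 1.13 kb for all 156161 introns and 1.77 kb for the hosts' introns without a guest. Introns over 50 kb were 0.776% of introns and held 21.4% of intron bases, and 206 guests (40.2%) lay in them. The density rose with length as well, from 0.501 guests per Mb of intron at 1 to 5 kb to 0.905, 1.06 and 1.46 in the next classes and 2.20 per Mb above 100 kb. This follows in part from the rule, since a guest must fit whole in its intron. In 237 of 399 hosts (59.4%) the longest intron held a guest. Hosts of 1 intron are counted here by construction, and the share of intron bases in longest introns was not taken. A guest took a median of 5.12% of its intron, and its nearest edge lay a median of 5.40 kb from a coding part of the host, with a range of 0.007 to 153 kb.

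The threshold of the rule is contact with a coding part. The guests closest to it were DEK_copy6 in UBE2Z at 7 bp, VSIG10L in IGLON5 at 15 bp, VSIG10L_copy2 in IGLON5 at 20 bp, ADH7_copy2 in C4orf17 at 24 bp and PTPN13_copy2 in EML4 at 63 bp. Another 50 named lines lay inside a host but overlapped its coding parts and were left out. Small overlaps were those of SETD1A_copy2 with ZNF668 (40 bp), RPL28_copy3 with PTPRA (63 bp), FGFR1OP2 with MTAP (65 bp) and C14orf2 with SLC37A3 (71 bp).

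Which intron was used differed between kinds of pair. First introns, counted in the host's direction of transcription, held 129 of 513 guests, 25.1% (21.4 to 29.1), against 16.3% of intron bases of the hosts. For hosts with at least 5 introns the share was 10.8% (7.84 to 14.4). The share of their own intron bases in first introns was not taken, so whether the excess held for them is unknown. For hosts labelled EVM the share was 46 of 376, or 12.2% (9.10 to 16.0), and 9.09% of the intron bases of these hosts lay in first introns. For hosts labelled exonerate or ALN it was 83 of 137, or 60.6% (51.9 to 68.8), with 51.5% of their intron bases in first introns. Of those 137 guests 77 had a host of at most 2 introns and 39 a host of 1 intron, which places the guest in the first intron by construction, against 2 and 0 of 376 for EVM hosts. The share also differed with the place of the pair in the mouse, described next, and again ran with the share of bases. Of 66 pairs nested in both species 4 used the first intron (6.06%, 1.68 to 14.8), where 6.84% of the hosts' intron bases lie. Of 35 pairs that are near neighbours in the mouse 18 did (51.4%, 34.0 to 68.6), where 45.6% of the hosts' intron bases lie, and 8 of the 35 had a host of at most 2 introns against 0 of the 66. Single-exon further loci used it in 38 of 211 cases (18.0%, 13.1 to 23.9), with 13.8% of bases.

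**Figure D4:**
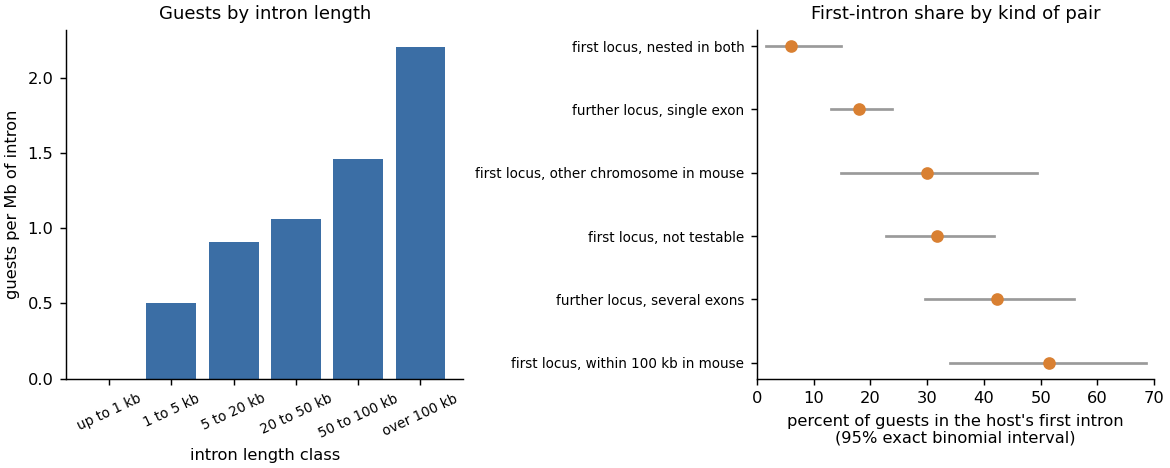
Left, guests per Mb of intron sequence by class of intron length; right, percent of guests in the first intron of their host for 6 kinds of pair, with exact binomial 95% intervals. Density rises from 0.501 to 2.20 guests per Mb from introns of 1 to 5 kb to those above 100 kb, and the first-intron share is 6.06% for pairs nested in both species and 51.4% for pairs within 100 kb of each other in the mouse, whose hosts have 6.84% and 45.6% of their intron bases in first introns.

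The mouse annotation gave a readout that the rule had not used. A pair was compared when both names occurred in it exactly once, and the coding spans of the mouse genes were taken. For first-locus guests 146 pairs could be compared. Guest and host were nested in the mouse in 66 (45.2%, 37.0 to 53.6), within 100 kb of each other in 39 (26.7%), farther apart on 1 chromosome in 9 and on different chromosomes in 30 (20.5%), and in 2 the guest lay inside but over a coding part. For further-locus guests 194 pairs could be compared, of which 1 was nested and 173 (89.2%, 83.9 to 93.2) were on different chromosomes. A further locus is looked up through the mouse gene of its symbol, so these 194 pairs say where that gene lies and could hardly come out nested. They are no comparison of further with first loci. All 67 pairs nested in both species lay on opposite strands in the mouse too. As talOcc3 held opposite-strand nests only, this count follows in part from the selection.

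**Figure D5:**
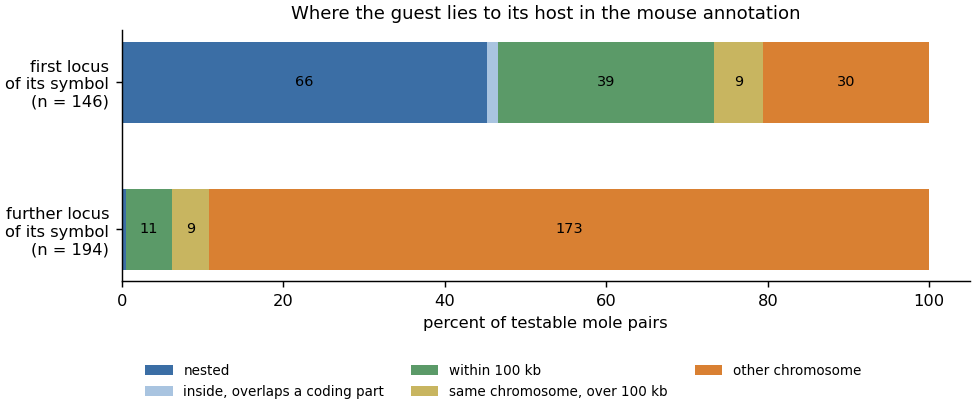
Place of guest and host in the mouse for mole pairs whose names each occur once there, as percent of 146 pairs with a first-locus guest and 194 pairs with a further-locus guest; numbers in the bars are pairs. Among first loci 66 pairs are nested in the mouse and 30 lie on different chromosomes, and among further loci 173 lie on different chromosomes.

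Pairs nested in both species had hosts with many exons. The 66 pairs had 55 hosts, and a host with several guests counts once per guest in the values that follow. Over the pairs, the host was labelled EVM in 65 of 66 and had a median of 18.5 exons, and 30 of 66 guests had 1 exon. The guest lay in the longest intron of the host in 52 of 66 pairs and in one of its 3 longest in 65. The median intron was 44.0 kb in the mole and 40.1 kb in the mouse, and it was longer in the mole in 36 pairs. The share of the host's coding bases before the guest differed between the species by a median of 1.48 percentage points, and by at most 5 points in 45 of 66 pairs. For 15 pairs the host had equally many introns in both annotations, and in 14 of these the intron had the same number. The longest guests of this kind were LRRN3, VASN in the actin regulator gene CORO7, and COL10A1, the collagen of hypertrophic cartilage, in NT5DC1 (scaffold 7, 46622779 to 46630571, intron 7 of 77.7 kb). TRIM32, a ubiquitin ligase gene of 1 exon, lay in the neuronal gene ASTN2, and ECM2, FAM196B in DOCK2, ANGPTL1, LRRTM1, LRRTM2 and AMIGO3 completed the 10 longest. Other pairs were PLN, the calcium pump inhibitor phospholamban with 156 coding bases, in CEP85L, the serotonin receptor gene HTR2B in the proteasome gene PSMD1, and the chemokine receptor gene CXCR6 in FYCO1.

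Pairs that were near neighbours in the mouse looked different in their hosts and guests. Over the 39 pairs the host had a median of 7 exons and was labelled EVM in 10, and 3 of 39 guests had 1 exon. Strand did not set them apart: the mouse genes lay on opposite strands in 38 of 39, and in all 67 pairs nested in both species. Every nest seen in talOcc3 was opposite-strand, so these counts follow in part from the selection. Long guests belonged here: IQGAP1, a cytoskeletal scaffold gene of 37 exons and 5097 coding bases, lay in intron 1 of ZSCAN2 and took 52.7% of it, PIK3R4 lay in intron 33 of COL6A6, PLA2G6 in the single intron of MAFF, and MORC4 in the single intron of CLDN2. The guest with the longest coding length of all, the mucin gene MUC16 with 42 exons and 23319 coding bases, lay in the last intron of the insulin receptor gene INSR, and in the mouse these 2 are on different chromosomes. PUM2 in SLC7A9_copy2, ITGB1 in ABCA1_copy2 and PNPLA8 in SDAD1 were also on different chromosomes there, USP36 and C1QTNF1 as well as B4GALNT4 and IFITM5 over 100 kb apart. The hosts SLC7A9_copy2 and ABCA1_copy2 are further loci of 2 exons each, with single introns of 132 kb and 181 kb.

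The later mole assembly separated these groups in the same way. Of first-locus pairs with 1 protein-coding locus of each name there, 63 of 63 that were nested in the mouse had the guest inside the host (95% interval 94.3 to 100). Of those apart in the mouse 0 of 61 did (upper limit 5.87%): 29 of the 33 near neighbours in the mouse were separate within 100 kb, 3 overlapped, and 20 of 21 with mouse genes on different chromosomes were on different sequences. Over all first-locus pairs that could be looked up, 65 of 159 (40.9%) were inside, with 64 of 121 for hosts labelled EVM and 1 of 38 for other hosts. The boundaries between sequences of that assembly were inferred from where start positions fall back, and strand and coding parts were not used.

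A last group of first loci had 1 exon and a mouse counterpart on another chromosome from that of the host. It held 21 guests, and the mouse gene had several coding parts in 21 of 21. For 13 of them another locus of the symbol in the mole had several exons, and for 5 the nested line was the only locus. SUMO2, a ubiquitin-like modifier gene, had its highest-scoring locus as a single exon of 445 bases in intron 9 of SMYD3, while its next locus had 4 exons and 67.6% of that score. NPM1, the gene of the nucleolar protein nucleophosmin, lay in intron 37 of the dynein gene DNAH6 as a single exon of 872 bases, while a locus of 11 exons existed elsewhere. AMD1, which makes a polyamine precursor, lay in CEP152 with 1001 bases, and its other locus had 9 exons and 93.7% of the score. NDUFA12, EDF1, SELENOK, RBM38 and JTB had no locus besides the nested one. First and further loci are ranked by score alone, so a nested single-exon line can be the first locus of its symbol.

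Looking from the mouse to the mole, most of the opposite-strand nests that could be looked up were found again, but most could not be looked up. Of 279 such mouse pairs, 84 had both genes at exactly 1 mole locus, and 58 of these were nested in talOcc3 (69.0%, 58.0 to 78.7), 24 lay apart and 2 overlapped. Among those apart was FGF7, a fibroblast growth factor gene, which lies inside Fam227b in the mouse and 55.5 kb from the FAM227B line of 4 exons in talOcc3. FLRT1 lay 24.2 kb from a MACROD1 line of 3 exons, FLRT3 lay 1120 kb from MACROD2, and LRTM2 lay 13.3 kb from CACNA2D4. In the later mole assembly the guest lay inside the host in all 4 of these pairs, in 12 of the 22 apart pairs that could be looked up there, and in 56 of 56 of the nested ones. Of 196 same-strand mouse pairs only 5 had both genes at 1 mole locus, and 0 of these were nested: LENEP and FLAD1, GPR75 and ASB3, PELO and ITGA1, and SLC5A3 and MRPS6 lay apart on the same strand, and CHMP1B and GNAL were on different scaffolds.

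Genes of gonadal function were looked up by list. Lists of testis and Sertoli, ovary and granulosa, Leydig and steroidogenic, germ cell and FGF genes had 22, 20, 22, 33 and 19 members with a locus. As guests SRD5A1 and PRDM9 appeared. SRD5A1, the 5-alpha-reductase that makes dihydrotestosterone, lay in intron 1 of the tRNA methyltransferase gene NSUN2 (scaffold 8, 1471635 to 1476797, 4 exons), an intron of 184 kb in a line of 192 kb. The same genes are within 100 kb of each other in the mouse and apart in the later mole assembly. PRDM9, which sets the sites of meiotic recombination, lay in intron 3 of ZNF658B (scaffold 35, 16116414 to 16129073, 10 exons). As hosts 3 members appeared, each with a further locus as guest. DMRT1, a transcription factor gene of testis differentiation, held STX8_copy2 (219 bases, 55.9% of the highest score) in intron 2. LHCGR, the luteinizing hormone receptor gene, held C9orf84_copy2 (183 bases, 5.52%) in intron 7, and FGF12 held MDK_copy2 (425 bases in 2 exons, 90.5%) in intron 2 of 146 kb. The ovary list and a list of 13 markers of other cell types gave 0 guests and 0 hosts. With 5 pairs in all, no share for the gonadal lists can be set against that of all lines at useful precision. Over all named lines 2.42% were guests, and 2.32% of those with several coding parts were hosts.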

How the data were processed

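The deposited file is a gene annotation of the mole assembly talOcc3 with start and end positions and a score on each transcript model, as the authors deposited them. Neither the meaning of the score nor the making of models labelled EVM, exonerate or ALN is given in the sources used. STAR 2.6.1d and mm9 appear among the submitters' processing notes without a stated role. All values belong to the annotation and none to a library (0 columns of per-sample values were left unused), so library depth is unknown. Groups came from the sample titles, because the strain label carries a running number in the Fgf9 comparison.

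Gene lines, transcripts and coding parts were combined with Python 3.11.15 (numpy 2.4.6, scipy 1.17.1, matplotlib 3.10.9). For 70 names on more than 1 gene line, the shortest line around the transcript was taken. Copy suffixes and low-confidence marks were removed from names. The 412 gene lines that reach beyond their coding span kept their own start and end. Functional classes came from symbol patterns. Mouse genes were protein-coding spans of GENCODE M21 (basic set, GRCm38), and no coordinate was converted. The later mole assembly was used for names and neighbourhood only. Genes named in the text are the textbook pairs, the 10 hosts and 10 symbols with most guests, the 10 longest first-locus guests, the 10 longest pairs of each mouse outcome, the gene-list members, and the 5 lines on either side of the threshold, some of which are not reported here; others were named after their values were seen. The members and lists were chosen with earlier results of these data known. The nest search was tested on simulated data. Alternatives changed names, filters, labels, positions and merging.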

Additional observations from a re-analysis of the deposited data

How the results depend on the processing

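Of 125 recomputed values 36 could not move: the file holds no same-strand overlap, so the same-strand share was 0 throughout, and 3 alternatives (longest host, low-confidence lines left out, overlapping guests merged) returned the very same pairs. Of the other 89, 72 stayed within 1.5 times the count or within the 95% interval of the reported value. Guests labelled EVM only left 113 guests in 72 hosts, with 0% single-exon, 15.9% further loci, 41.4% in first introns, a median intron of 61.7 kb and 19.0% of testable pairs nested in the mouse. Hosts labelled EVM only gave 62.2% single-exon guests, 12.2% in first introns and 60.7% nested in the mouse. Leaving out guests under 300 coding bases gave 51.8% single-exon and 46.9% further loci, and 1 guest per host gave 62.7% single-exon. Leaving out lines under 50% of the highest score gave 42.2% further loci. The first-intron share was 10.8% with hosts of at least 5 introns and, an alternative chosen after seeing the data, 6.06% in pairs nested in both species. With all guests, 19.7% of pairs were nested in the mouse. Dropping the 10 hosts with most guests and using the comprehensive mouse annotation, both also chosen after seeing the data, moved no value beyond these limits. The cause of these shifts was not tested. No paired analysis was possible because every value here describes a gene line and not a library. Joined gene models cannot be told apart from true nests by position alone, and nests between untranslated exons cannot be seen. The annotation held no overlap on the same strand, so nothing is known here of nests on that strand.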

Other observations

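Some pairs with names known from sperm were seen among the guests and were picked after their values were known. PRM3 and TNP2, a protamine and a transition protein gene of the sperm nucleus, lay in the gene line of RMI2 outside its coding span (scaffold 17, 47117427 to 47119797 and 47120442 to 47127464), and both lie within 100 kb of Rmi2 in the mouse. SPACA4, a sperm acrosome protein gene of 375 coding bases in 1 exon, lay in intron 2 of FAM83E, and TEX13A lay in intron 1 of IL1RAPL2. Both of these pairs were nested in the mouse, and in the later mole assembly the guest lay inside the host. CATSPERB, a subunit gene of the sperm calcium channel, held PDK3_copy2 in intron 4 and RPS3A_copy2 in intron 9, both further loci.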
